A study of Mus musculus with 6 samples.

Results

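Olfactory ensheathing glia wrap the bundles of olfactory sensory neuron (OSN) axons that run from the olfactory epithelium through the lamina propria to the olfactory bulb. The genes described here are 8 glial genes of olfactory nerve bundles, called ensheathing glia genes below: Sox10, Ngfr, S100b, Fabp7, Gfap, Mbp, Frzb and Npy. Several are commonly used to recognise these cells, whereas Mbp is known from myelinating glia. The 8 were chosen by name, and a gene is the sum of all transcript entries that carry its name. All 8 were present among the 24661 genes in the deposited tables, all had counts, and 7 of the 8 had at least 10 counts in every mouse, the exception being Npy.

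RNA was sequenced from whole dissected olfactory mucosae at postnatal day 21, with 3 mice in the wild-type group and 3 in the RTP1,2DKO group. RTP1,2DKO mice are homozygous for null alleles of both Rtp1 and Rtp2, receptor transporting proteins that help odorant receptors reach the cell surface, in every cell of the body. The coding regions were replaced in hybrid 129/B6 embryonic stem cells and the line was crossed to C57BL/6, the strain given in the labels for both groups, so sequence of 129 origin near the targeted genes may remain in 1 group. The labels call the tissue olfactory epithelium, whereas the methods describe mucosa with its surrounding tissues, taken from sex-matched littermates.

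Ensheathing glia come from the neural crest, like the Schwann cells of other peripheral nerves, but they enclose many thin axons together and do not make myelin around them. They renew with the olfactory nerve and accompany new axons throughout life. None of the 8 genes is made by these cells alone. S100b and Frzb are also known from cartilage, Sox10 from gland epithelia and Schwann cells, Mbp from all myelinating glia, Gfap from astrocytes, and Npy from neurons and from some non-neuronal cells of the olfactory epithelium.

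The libraries held 31125410 to 41636996 estimated counts. Rtp1 had 13540 to 25300 normalized counts in the wild-type mice and 85.5 to 109 in the RTP1,2DKO mice, and Rtp2 had 7157 to 9510 and 26.2 to 58.0, so the targeted genes followed the labels. Omp, the marker of mature OSNs, was at 60010 to 67310 normalized counts in the wild-type and 27620 to 39600 in the RTP1,2DKO. All 12 mature OSN genes had a negative log2 fold change, and 9 of them passed an edgeR adjusted p of 0.05. Xist had 73670 and 66390 normalized counts in mouse 2 of each group and at most 155 in the others, so each number joins mice of 1 sex. Across all genes 799 of 22152 differed between the genotypes, 697 lower and 102 higher in the RTP1,2DKO.

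The sequences before the start sites were searched for 2 short motifs. RefSeq promoter windows of 250 bases upstream of the start site (GRCm38.p6) were given for 6 of the 8 genes and not for Sox10 and Mbp. The S100b and Npy windows lie wholly outside the annotated genes and are shown because they hold a CCAAT box, a common promoter element, in capitals (CCAAT, or ATTGG where it lies on the other strand). S100b is at chr10:76253586-76253835 on the plus strand and Npy at chr6:49822460-49822709 on the plus strand.

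S100b: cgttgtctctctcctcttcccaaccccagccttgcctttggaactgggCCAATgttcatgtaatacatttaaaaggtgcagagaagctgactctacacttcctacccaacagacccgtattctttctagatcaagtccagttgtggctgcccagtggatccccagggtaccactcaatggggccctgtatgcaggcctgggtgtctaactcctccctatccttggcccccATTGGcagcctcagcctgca
Npy: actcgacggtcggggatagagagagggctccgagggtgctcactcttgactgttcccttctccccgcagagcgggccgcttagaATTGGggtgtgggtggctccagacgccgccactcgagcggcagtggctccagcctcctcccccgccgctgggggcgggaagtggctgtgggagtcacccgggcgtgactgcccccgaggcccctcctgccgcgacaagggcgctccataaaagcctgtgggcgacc

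A CCAAT box was present in 3 of the 6 windows (S100b, Fabp7 and Npy), against 33.8% of the 32851 windows in the table. Except for Npy, the start sites of the table differ from those of the gene annotation. Inside the annotated gene lie 250 bases of the Gfap window, 229 of the Frzb window, 42 of the Fabp7 window and 37 of the Ngfr window. The letters ACAAAG or ACAATG on either strand, the core that SOX proteins are known to bind, occurred in 0 of the 6 windows and in 25.2% of all windows. These matches describe the letters in the windows and were not tested for binding.

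The comparison of the genotypes asked whether the genes of the glia around OSN axons differed when the neurons lacked RTP1 and RTP2 and mature OSN transcripts were lower. None of the 8 genes passed the threshold of an adjusted p of 0.05 in the edgeR quasi-likelihood test over all genes, where 3.61% of the genes tested passed it, 3.15% lower and 0.46% higher in the RTP1,2DKO. At an unadjusted p under 0.05 there was 1, Mbp, where 11.8% of all genes lay under that value. The edgeR exact test called 0 of the 8, beside 4.23% of all genes, and the DESeq2 Wald test called 1, again Mbp, beside 5.81%. With the mouse number as a block, 0 of the 8 and 4.57% of all genes were called. The normalized counts of the groups overlapped for all 8 genes, whereas they did not overlap for 16.4% of the genes tested. The values were estimated counts divided by a size factor for each library. In bulk RNA, fewer cells of a type and less RNA per cell cannot be told apart.

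**Figure D1:**
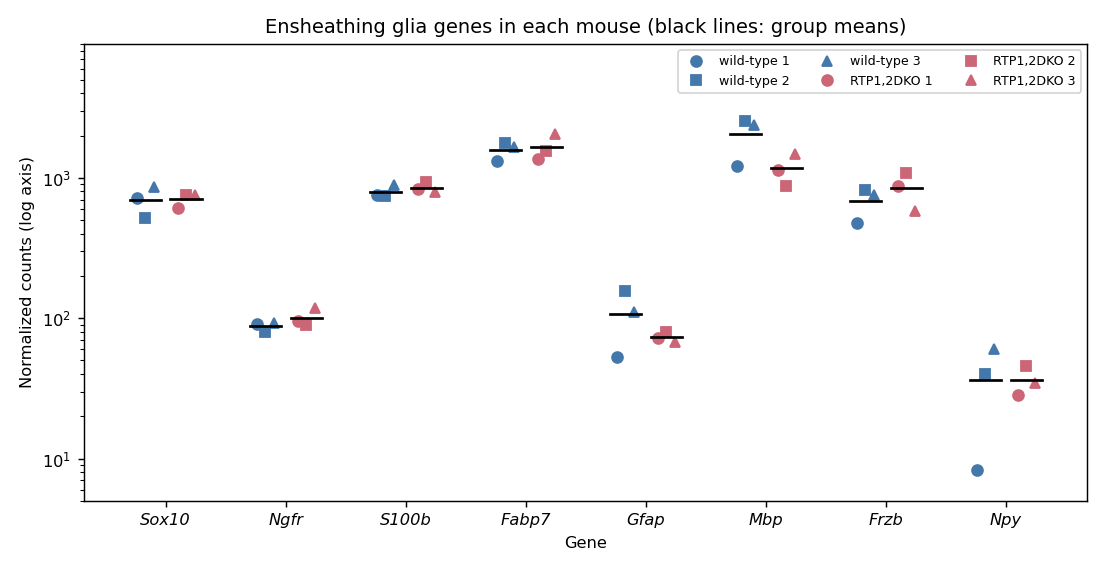
Normalized counts (log axis) of the 8 ensheathing glia genes in each of 3 wild-type mice (blue) and 3 RTP1,2DKO mice (red), with black lines at the group means and 1 symbol shape for each mouse number. The 2 colours overlap for every gene, and the lowest point, Npy in wild-type mouse 1, stands at 8.28 counts.

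Sox10 encodes the transcription factor that specifies and maintains neural crest glia. It had 718, 516 and 868 normalized counts in wild-type mice 1, 2 and 3 and 612, 759 and 760 in RTP1,2DKO mice 1, 2 and 3. The lowest and the highest mouse were both wild-type, so the RTP1,2DKO values lay inside the wild-type range. Wild-type mice averaged 701 ± 176 and RTP1,2DKO mice 710 ± 84.8 normalized counts (mean ± SD, n = 3 each). Sox10 had a log2 fold change of 0.02 (SE 0.18, edgeR adjusted p = 0.987), with a 95% confidence interval of -0.37 to 0.42. In linear terms, the interval ran from 0.772 to 1.33 times the wild-type level. The gene lies at chr15:79154908-79165240 on the minus strand (GRCm38).

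Ngfr encodes the low-affinity neurotrophin receptor p75, used to isolate ensheathing glia and also present on Schwann cells. It had 91.0, 79.2 and 92.6 normalized counts in the wild-type and 94.8, 89.0 and 119 in the RTP1,2DKO. RTP1,2DKO mouse 3 was the highest and wild-type mouse 2 the lowest, with the other values close together. Ngfr had a log2 fold change of 0.20 (SE 0.25, edgeR adjusted p = 0.84), with an interval of -0.34 to 0.75.

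Of the other 13 neurotrophin and receptor genes measured, 1 passed the test. Lingo1, a co-receptor of p75 that neurons also carry, fell from 2298, 2516 and 2432 normalized counts in the wild-type to 1483, 1673 and 1384 in the RTP1,2DKO (log2 fold change -0.67, SE 0.12, edgeR adjusted p = 0.00486). The members of the list with the most counts, the sorting receptor Sort1, the p75 partner Maged1 and the BDNF receptor Ntrk2, had log2 fold changes of -0.08, 0.26 and -0.08 and adjusted p values of 0.878, 0.482 and 0.861.

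S100b encodes a calcium-binding protein of glia. It had 754, 749 and 887 normalized counts in the wild-type and 838, 933 and 788 in the RTP1,2DKO. It was the steadiest of the 8, with a ratio of 1.25 between the highest and the lowest mouse. S100b had a log2 fold change of 0.10 (SE 0.13, edgeR adjusted p = 0.855), with an interval of -0.19 to 0.39, the narrowest among these genes. S100b lies at chr10:76253853-76261159 on the plus strand (GRCm38), where Dip2a overlaps it on the opposite strand. Of its 31-base words, 99.8% occur in no other gene's transcripts.

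Among 15 other S100 family genes, 1 passed the test. S100a6, a relative found in many proliferating and supporting cells, rose from 4535, 5831 and 4717 normalized counts to 7223, 7574 and 8022 (log2 fold change 0.60, SE 0.13, edgeR adjusted p = 0.0183), with no overlap between the genotypes. S100a5, which mature OSNs make in response to activity, had a log2 fold change of -0.78 (SE 0.28, adjusted p = 0.219). The median over the 15 genes was 0.20, beside 0.02 over all genes tested.

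Fabp7 encodes a brain-type fatty acid binding protein of ensheathing and radial glia. It had 1312, 1781 and 1670 normalized counts in the wild-type and 1359, 1544 and 2060 in the RTP1,2DKO. Mouse 1 was the lowest in both groups, and RTP1,2DKO mouse 3 was the highest. The log2 fold change was 0.06 (SE 0.16, edgeR adjusted p = 0.949), with an interval of -0.30 to 0.42. The gene lies at chr10:57784881-57788450 on the plus strand (GRCm38).

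Of 10 other lipid-binding relatives with counts, 2 passed the test, both retinoic acid binding proteins. Crabp1 rose from 283, 172 and 195 normalized counts to 436, 346 and 417 (log2 fold change 0.88, SE 0.20, edgeR adjusted p = 0.0294). Crabp2 rose from 230, 226 and 163 to 359, 452 and 375 (0.94, SE 0.19, adjusted p = 0.011). Fabp5, the fatty acid binding protein of the list with the most counts, had a log2 fold change of 0.27 (adjusted p = 0.528). Fabp1 and Fabp9 had 0 counts in all mice.

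Gfap encodes the intermediate filament of astrocytes and of a share of ensheathing glia. It had 52.8, 157 and 110 normalized counts in the wild-type and 72.7, 80.2 and 67.6 in the RTP1,2DKO. The wild-type mice held both the lowest and the highest value, and the RTP1,2DKO mice lay close together between them. Gfap had a log2 fold change of -0.54 (SE 0.35, edgeR adjusted p = 0.656), with an interval of -1.30 to 0.22. With mice left out in turn it ranged from -0.86 to -0.14, and none of the 6 fits passed the threshold.

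None of 10 other intermediate filament genes passed the quasi-likelihood test, and 1 lay at an unadjusted p under 0.05. Vim, with the most counts, had a log2 fold change of 0.19 (adjusted p = 0.619), and Prph, a filament of peripheral neurons, one of 0.48 (unadjusted p = 0.0107, adjusted p = 0.176). Among 10 astrocyte genes, 1 passed. Slc1a2, the glial glutamate transporter, which other cells of the mucosa may also carry, fell from 5775, 5820 and 4670 normalized counts to 3296, 2764 and 2550 (log2 fold change -0.92, SE 0.14, edgeR adjusted p = 0.00174). The water channel Aqp4 was at 16930 to 21340 normalized counts in all mice, with a log2 fold change of 0.05 (adjusted p = 0.945).

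Mbp encodes myelin basic protein, the protein that compacts the myelin sheath. It had 1209, 2543 and 2376 normalized counts in the wild-type and 1133, 882 and 1491 in the RTP1,2DKO. Wild-type mice 2 and 3 stood above all other mice, while wild-type mouse 1 lay among the RTP1,2DKO mice. Wild-type mice averaged 2043 ± 726.5 and RTP1,2DKO mice 1169 ± 306.5 normalized counts (mean ± SD, n = 3 each). The log2 fold change was -0.81 (SE 0.25, unadjusted p = 0.0065, edgeR adjusted p = 0.126), with an interval of -1.34 to -0.27, or 0.394 to 0.83 times the wild-type level before any adjustment for multiple tests.

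The call for Mbp depended on 1 library and on the test. Without wild-type mouse 1 the log2 fold change was -1.07 and the edgeR adjusted p was 0.0042, and leaving out each of the other mice gave adjusted p values from 0.0598 to 0.346. The DESeq2 Wald test gave an adjusted p of 0.0181 on all 6 mice and the edgeR exact test 0.0823. With the mouse number as a block the adjusted p was 0.0619.

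Mbp has 8 transcript entries in the tables, and the difference between mice was spread unevenly over them. The longest entry, of 4820 bases, had 757, 622 and 623 normalized counts in the wild-type and 647, 546 and 521 in the RTP1,2DKO. The other 7 entries, of 1985 to 2531 bases, together had 452, 1921 and 1753 in the wild-type and 486, 336 and 970 in the RTP1,2DKO. The longest entry thus held 24.5% to 62.6% of the gene's counts, and wild-type mice 2 and 3 stood apart in the shorter entries. These are estimates that divide shared reads between entries, and no test was made on them.

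**Figure D2:**
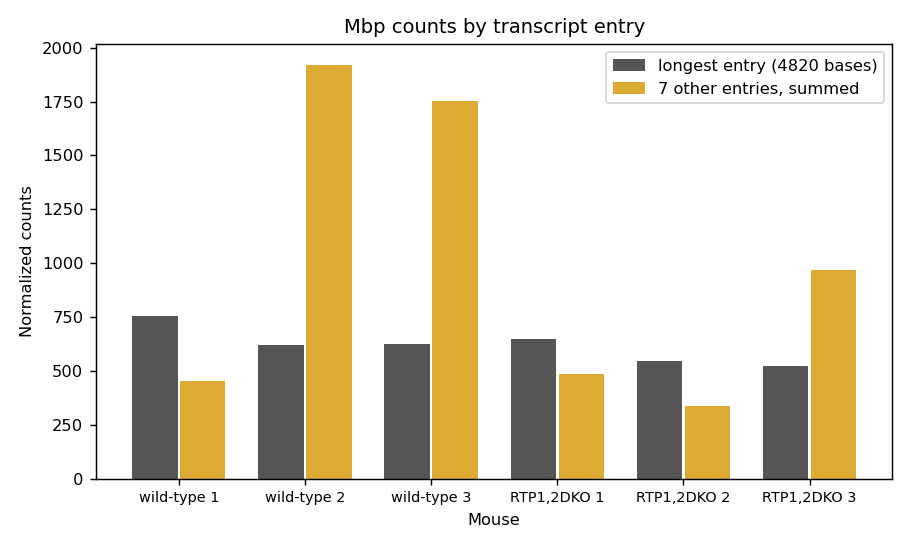
Normalized counts of Mbp in each mouse, with the longest transcript entry in grey bars and the sum of the 7 other entries in yellow bars. The grey bars run from 521 to 757 and the yellow bars from 336 to 1921.

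Genes of central and of peripheral myelin did not follow 1 pattern. Mobp, a protein of oligodendrocyte myelin, had 47.6, 140 and 100 normalized counts in the wild-type and 31.6, 11.3 and 7.84 in the RTP1,2DKO (log2 fold change -2.51, SE 0.53, edgeR adjusted p = 0.0167) and was the only gene of 16 in the myelin list to pass. Mog, also of oligodendrocytes, had 2.07, 33.4 and 29.8 against 7.38, 9.59 and 0.98 (log2 fold change -1.83, adjusted p = 0.511).

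For both Mobp and Mog, wild-type mice 2 and 3 were higher than the other mice, as for Mbp. Pmp22, a protein of peripheral myelin, had 1164, 1134 and 1495 normalized counts in the wild-type and 1105, 1169 and 2712 in the RTP1,2DKO, and stood out in RTP1,2DKO mouse 3 alone. Prx, also of peripheral myelin, was highest in the same mouse, at 228 normalized counts. Over the 16 genes the median log2 fold change was 0.05, with 9 positive and 7 negative. The part that oligodendrocytes and Schwann cells had in the Mbp values was not tested.

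Genes of the olfactory bulb and central oligodendrocytes were measured beside Mbp. Of 16 such genes 3 passed the test as lower (Mobp, the GABA synthesis enzyme Gad1 and the synaptic protein Snap25) and 2 as higher (Olig1 and Olig2). The log2 fold change was negative for 13 and positive for 3 of the 16, with a median of -0.78 beside 0.02 over all genes tested, and 7 genes lay at an unadjusted p under 0.05. Olig2, an oligodendrocyte lineage factor that is also made in olfactory progenitors, had 581, 566 and 505 normalized counts in the wild-type and 1096, 1032 and 1119 in the RTP1,2DKO (log2 fold change 0.97, SE 0.13, edgeR adjusted p = 0.000682). The defining mitral cell marker Tbx21 had 0, 5.73 and 2.2 normalized counts in the wild-type and 0, 0 and 0.98 in the RTP1,2DKO. Slc32a1 had 2.07, 11.45 and 25.36 against 0, 0 and 5.88. Both were highest in wild-type mice 2 and 3, as Mbp was. Eomes (243, 282 and 181) and Slc17a7 (43.45, 41.98 and 39.69) did not set wild-type mouse 1 below those mice. The part of bulb tissue in the Mbp values was not tested. The summed level of the 16 genes ranged from 96.9 to 126 FPKM (fragments scaled by transcript length and by library size) in the wild-type and from 90.8 to 112 in the RTP1,2DKO, and no gene of the list was at 0 in all mice.

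**Figure D3:**
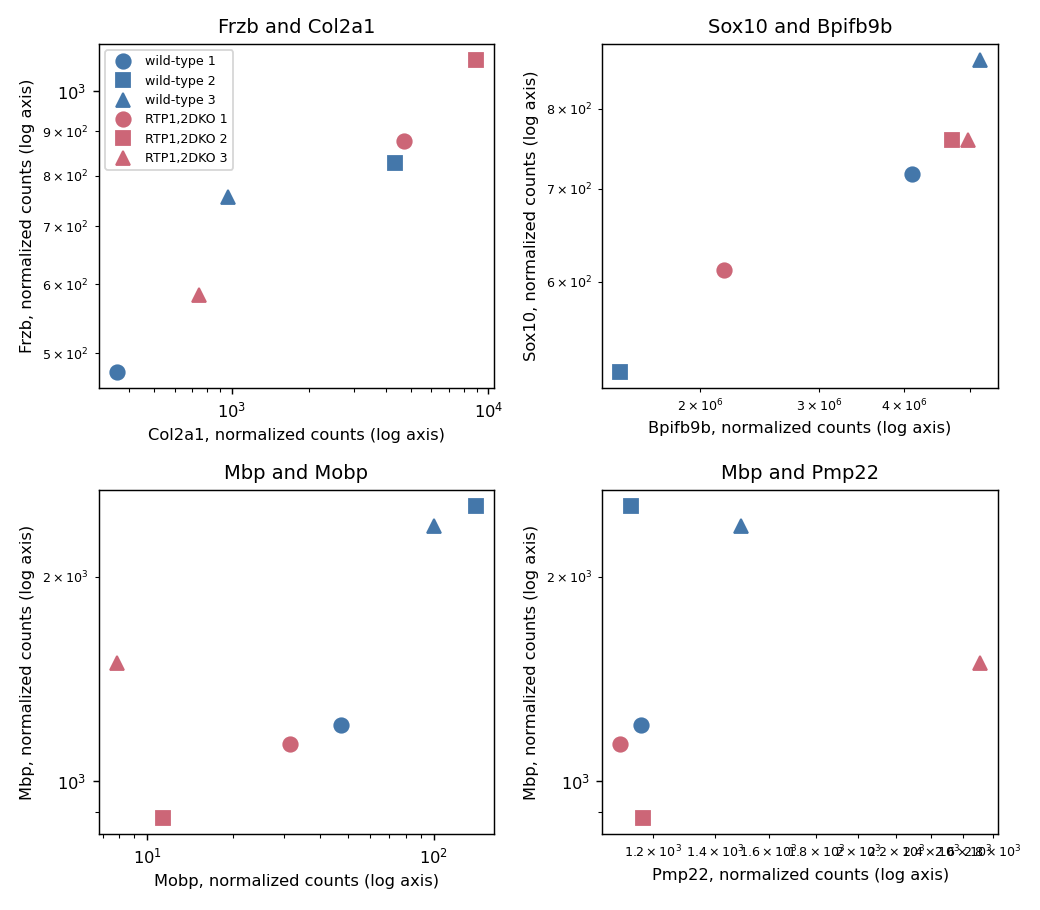
Normalized counts of 3 ensheathing glia genes against those of another gene in the same mice (both axes log), with wild-type mice in blue, RTP1,2DKO mice in red and 1 symbol for each mouse number. Frzb and Sox10 order the 6 mice as Col2a1 and Bpifb9b do, Mbp is highest in the 2 wild-type mice with the most Mobp, and Pmp22 is high in 1 mouse only.

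Frzb encodes a secreted Wnt antagonist found in ensheathing glia and in cartilage. It had 476, 826 and 755 normalized counts in the wild-type and 878, 1087 and 583 in the RTP1,2DKO. The lowest pair, wild-type mouse 1 and RTP1,2DKO mouse 3, held 1 mouse of each group, and the ranges overlapped. Frzb had a log2 fold change of 0.31 (SE 0.23, edgeR adjusted p = 0.719), with an interval of -0.19 to 0.81. None of 12 other secreted Wnt antagonists passed the quasi-likelihood test, and 1 lay at an unadjusted p under 0.05. Those with the most counts, Sfrp2, Sfrp1 and Dkk3, had log2 fold changes of 0.05, -0.09 and -0.07.

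Frzb ranked the 6 mice as Col2a1, the main collagen of cartilage, did. Col2a1 had 357, 4346 and 965 normalized counts in the wild-type and 4679, 8952 and 750 in the RTP1,2DKO. The Pearson correlation of Frzb with Col2a1 on the log2 scale was 0.95 over the 6 mice, and 0.395% of 15429 genes had one at least as high. With the mean of 14 cartilage genes, Frzb had a correlation of 0.99, and it stayed from 0.98 to 0.99 when each mouse was left out. Frzb was about as close to the means of other lists, at 0.98 for bone, 0.97 for the other secreted Wnt antagonists and 0.94 for mesenchyme.

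The summed level of the 14 cartilage genes ranged from 47.4 to 157 FPKM in the wild-type and from 59.4 to 235 in the RTP1,2DKO. None of the 14 passed the quasi-likelihood test, and 2 lay at an unadjusted p under 0.05. Their log2 fold change was positive for 13 of 14, with a median of 0.79 beside 0.02 over all genes tested. S100b, the other gene also known from cartilage, had a correlation of 0.66 with the same mean, and 0.39 without RTP1,2DKO mouse 2. The value of S100b was the same, 0.66, for the Bowman gland, mesenchyme and macrophage lists, and it was 0.69 for intermediate filaments and 0.68 for Wnt antagonists. These gene pairs were singled out after their values were seen, the points share libraries and scaling, and the part of cartilage in the Frzb values was not tested.

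Sox10 ranked the mice as Bpifb9b did, a secreted protein of nasal glands and the gene of the gland list with the most counts. Bpifb9b had 4108000, 1526000 and 5170000 normalized counts in the wild-type and 2167000, 4701000 and 4961000 in the RTP1,2DKO. Their correlation was 0.97 over the 6 mice, a value reached by 0.201% of 15429 genes. With the mean of 10 Bowman gland genes, Sox10 had a correlation of 0.96, from 0.86 to 0.98 when each mouse was left out.

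The summed level of the 10 gland genes ranged from 87400 to 221000 FPKM in the wild-type and from 131000 to 220000 in the RTP1,2DKO, and none of the 10 passed the test. This pair, too, was singled out after its values were seen, and the part of gland tissue in the Sox10 values was not tested. Of 200 correlations between the 8 genes and the means of 25 lists, 7 reached 0.9. Besides those of Frzb and Sox10 they were of Fabp7 with myelin (0.93) and of Npy with sustentacular cells (0.94). These 2 values moved more when each mouse was left out, from 0.77 to 0.96 for Fabp7 and from 0.66 to 0.97 for Npy. Both were lowest without wild-type mouse 1.

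Npy encodes neuropeptide Y, a peptide transmitter that ensheathing glia express in development and that other cells of the mucosa also make. It had 8.28, 40.1 and 60.6 normalized counts in the wild-type and 28.5, 45.4 and 34.3 in the RTP1,2DKO. The wild-type mice held the lowest and the highest value, 7.33-fold apart. The log2 fold change was -0.01 (SE 0.56, edgeR adjusted p = 0.998), with an interval of -1.22 to 1.21, which spans changes of 2-fold in both directions at this depth. Of 8 related peptide and receptor genes, Pyy and Ppy had 0 counts in all mice, 6 were tested and none passed, also at an unadjusted p under 0.05. The receptor Npy1r had 417 to 516 normalized counts, with a log2 fold change of 0.01 (adjusted p = 0.991).

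**Figure D4:**
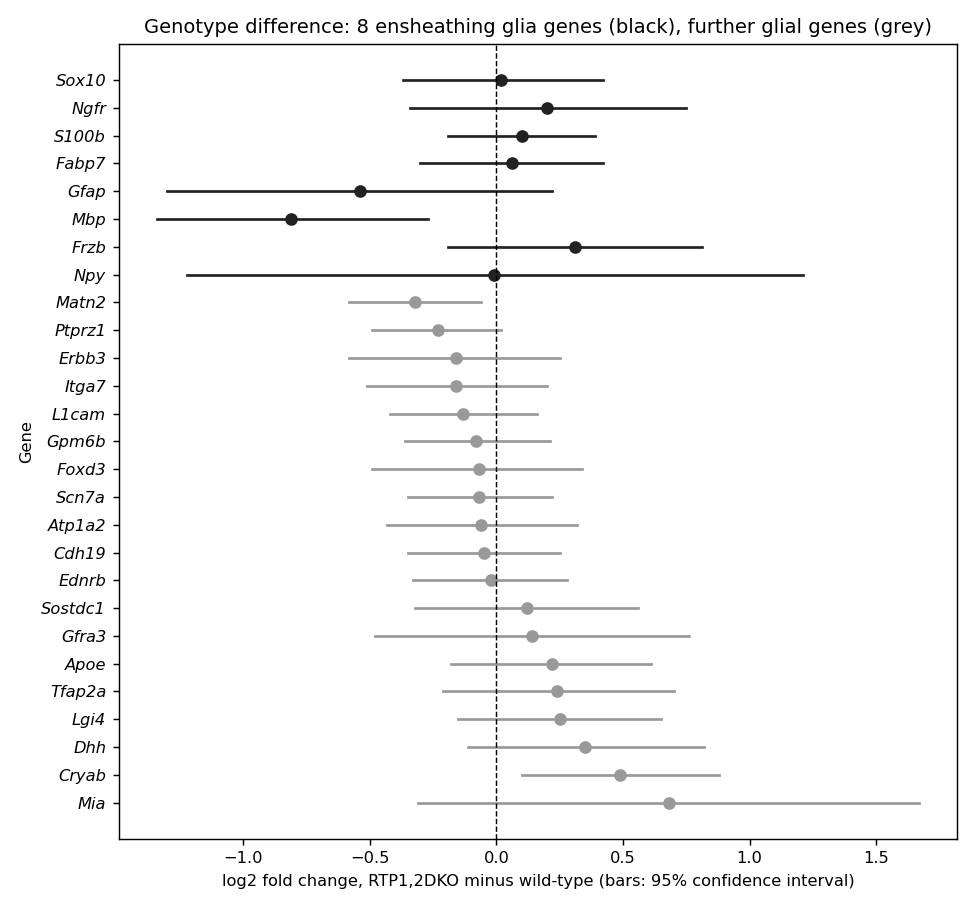
The log2 fold change (RTP1,2DKO minus wild-type) of the 8 ensheathing glia genes (black) and of further genes of ensheathing and Schwann lineage glia (grey), with 95% confidence intervals as bars. The interval of Mbp, -1.34 to -0.27, lies below 0, those of the other 7 genes include 0, and that of Npy, -1.22 to 1.21, is the widest among the 8.

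The 8 genes were also compared by level per length. Fabp7 was the highest, at 172 to 258 FPKM over the 6 mice, above every other gene in each of them. Mbp followed at 9.93 to 46.5 and S100b at 18.7 to 22.9, and Mbp exceeded S100b in 3 of 6 mice, so their order was not fixed. Npy, Frzb and Sox10 had means of 9.72, 9.30 and 9.24 FPKM, and each pair of neighbours changed places in 3 of 6 mice.

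Gfap at 0.719 to 2.29 FPKM and Ngfr at 0.859 to 1.11 were the lowest pair, and Gfap was above Ngfr in 4 of 6 mice. The level of a short transcript depends on its effective length, the number of positions where a fragment can start. Npy, of 580 bases, had an effective length of 105 bases, and Fabp7, of 762 bases, one of 218. With the full length in place of the effective length, the mean of Npy fell to 1.76 FPKM and its rank from 4 to 6, while Fabp7 at 60.5 FPKM stayed the highest. Fabp7 held 74.0% of the summed level of the 8 genes on the effective length and 54.9% on the full length.

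The 8 genes did not rank the mice alike. Over their 28 pairs the Pearson correlation across the 6 mice ran from -0.57 (Ngfr and Gfap) to 0.76 (Mbp and Gfap), with a median of 0.11, and 10 of the 28 were negative. Sox10 and S100b had a correlation of 0.56, and Sox10 and Mbp one of -0.19. The genes whose pattern was most like the mean of the 8 standardised profiles, among 15423 genes with a mean of at least 50 normalized counts, were Tgfb1i1 (0.992), Ube2j2 (0.987), Bambi (0.987), Clcf1 (0.985) and Crot (0.985). With so many genes compared over 6 mice, these values describe likeness and nothing more.

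Other genes of the same lineage were measured beside the 8. None of 20 further genes of ensheathing and Schwann lineage glia passed the quasi-likelihood test, 3 (among them Cryab and Matn2) lay at an unadjusted p under 0.05, and the DESeq2 Wald test and the edgeR exact test called 0. The median log2 fold change was -0.05, with 8 positive and 12 negative, beside a median of 0.02 over all genes tested.

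The neuregulin receptor Erbb3 had 2889, 1632 and 1741 against 2017, 1648 and 1922 normalized counts. The glial cadherin Cdh19 had 549, 622 and 520 against 508, 542 and 583. The neural crest factor Foxd3 had 197, 298 and 230 against 229, 229 and 232. For these 3 genes the wild-type mice spanned the wider range, and the groups overlapped.

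The factors that act beside Sox10 were also measured. None of 10 SoxE factors and partners passed the test, and 0 lay at an unadjusted p under 0.05. Sox9, with the most counts, is shared with glands and cartilage and had a log2 fold change of -0.01 (adjusted p = 0.992). Among 20 genes of neuregulin and axon-glia signals 1 passed. Cxcr4, a chemokine receptor that progenitors of the olfactory epithelium also carry, rose from 931, 1023 and 730 normalized counts to 1652, 1258 and 1253 (log2 fold change 0.63, SE 0.16, edgeR adjusted p = 0.0446), while its ligand Cxcl12 had a log2 fold change of 0.20 (adjusted p = 0.6).

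**Figure D5:**
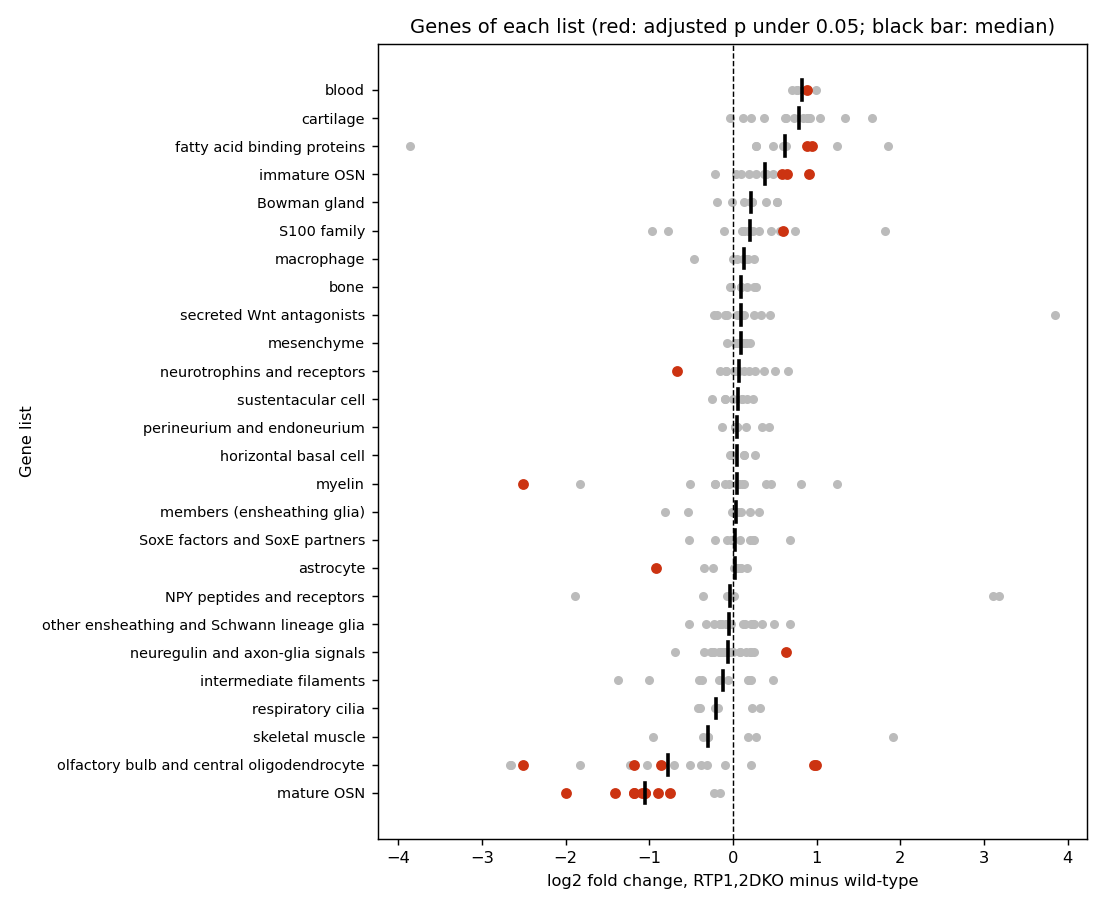
The log2 fold change (RTP1,2DKO minus wild-type) of each gene of 26 lists, 1 list a row, in red where the edgeR adjusted p is under 0.05, with a black bar at the median of the list. The 8 ensheathing glia genes sit around 0 with no red point, the mature OSN genes lie below 0, and the outermost grey points are genes with a few counts.

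Lists of the other cells in the mucosa were set beside the glial genes. Over 25 further lists, 24 of 261 genes passed the test, 14 lower and 10 higher in the RTP1,2DKO. The mature OSN list, with a median log2 fold change of -1.05, held 9 of the lower genes. Of 12 immature OSN genes 3 passed the test as higher, namely Gap43, Gng8 and Nhlh2.

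In 15 lists, set apart because none of their genes passed the quasi-likelihood test, 139 genes were tested. Of these 139 genes 12 lay at an unadjusted p under 0.05, beside 11.8% of all genes tested. The DESeq2 Wald test called 2 of them and the edgeR exact test called 0, beside 5.81% and 4.23% of all genes. Because the lists were picked by a test on the same counts, low numbers here follow in part from that choice. They are no separate evidence about these cell types. The 15 lists are the further glia, SoxE, NPY, Wnt antagonist and intermediate filament lists described above and those of sustentacular cells, Bowman glands, horizontal basal cells, cartilage, mesenchyme, perineurium and endoneurium, bone, skeletal muscle, macrophages and respiratory cilia.

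Among 6 blood genes all were higher in the RTP1,2DKO, with a median log2 fold change of 0.82, and 1, Hbb-bt, passed the test (adjusted p = 0.0485). Of the 8 ensheathing glia genes 5 had a positive and 3 a negative log2 fold change, with a median of 0.04. The summed level of the 6 blood genes was 12700, 23100 and 15400 FPKM in the wild-type and 40000, 26300 and 19000 in the RTP1,2DKO. Over the 6 mice, Mbp had a correlation of -0.35 with the mean of the blood genes. Its values with other lists ran from -0.77 for immature OSN to 0.68 for myelin. They were 0.65 for the olfactory bulb and central oligodendrocyte list, 0.63 for astrocytes and 0.62 for mature OSN. The part of any of these tissues or cells in the Mbp values was not tested.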

How the data were processed

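RNA-Seq was performed on 3 wild-type and 3 RTP1,2DKO whole olfactory mucosae. The labels name a KAPA stranded kit and the methods an Illumina one. Per the submitters' processing notes, the authors quantified reads with kallisto (build mm10, version not given in the sources used here) and deposited estimated counts and TPM (a level scaled by transcript length and to a fixed total) for 38041 transcript entries in each mouse. The strand setting was not given, so reads of overlapping genes on opposite strands may not be told apart. Here, estimated counts were summed for each gene and rounded to whole numbers, and the test covered the 22152 genes that reached 1 count in any mouse. Normalized counts are counts divided by median-of-ratios size factors. FPKM were obtained by dividing estimated counts by effective length and library total, and shares of a summed level are the same in the deposited TPM by construction.

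Genotypes were compared with the quasi-likelihood test of edgeR 4.0.16 (R 4.3.3), two-sided, with Benjamini-Hochberg adjustment over all genes tested and a threshold of 0.05. Intervals are 95% intervals from the same fit. DESeq2 1.42.0, the edgeR exact test, TMM and total-count scaling, filterByExpr, a replicate block and the omission of each mouse were the alternatives. On simulated counts for 21955 genes, 72% of 100 genes changed 2-fold and 92% of 100 changed 4-fold were recovered, and 15% of 193 calls were false. The changed genes were drawn only from those above a minimum mean count, so recovery among genes with fewer counts was not measured. The share of false calls lay above the threshold of 0.05, which bears on calls near it.

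The labels give both groups the numbers 1 to 3, and the methods describe sex-matched littermates. Deviations from the group means of same-numbered mice had correlations of 0.101 to 0.177 over 18156 genes, against -0.217 to 0.0902 for other pairs, and the number was therefore taken to pair the mice in the blocked fit. The labels do not say whether replicates come from separate litters. The p-values set the genotype difference against the spread between these mice. In the main test, which used no block, that spread includes differences between the numbered pairs, sex among them.

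The 8 genes and all other lists were chosen with earlier results of these data known. The text names the 8 genes, the targeted genes, the genes of other lists that passed the threshold or had the most counts, and the 5 genes most like the mean profile of the 8. Some genes of the lists are counted but not reported here. Col2a1, Bpifb9b, Pmp22 and other comparison genes were added after their values were seen. Correlations used log2 of normalized counts plus 1, and carry no p; the genes and list genes compared with the 8 had a mean of 50 counts or more, whereas the 8 were all kept, Npy with its lower mean included. Gene positions are from GENCODE M21 (GRCm38), of the same build as mm10, and promoter sequences from RefSeq (GRCm38.p6). Sequence words of 31 bases were used to check whether a gene shares sequence with others, and 98.7% to 100.0% of each gene's words were in no other gene.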

Additional observations from a re-analysis of the deposited data

How the results depend on the processing

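The count of genes changed between the genotypes was 799, and it was 598 to 777 with mice left out and 670 to 1112 under the other alternatives. Its split moved more, from 102 genes higher in the RTP1,2DKO to 42 under total-count scaling, 217 with DESeq2, 196 with the replicate block and 52 to 132 with mice left out. The number of ensheathing glia genes called was 0, and 1 (Mbp) with the DESeq2 Wald test and when wild-type mouse 1 was left out, so it ranged from 0 to 1 with mice left out. The replicate block, which used the pairing of the mice by number, changed no call of the 8 genes, and it moved Npy from -0.01 to 0.24 on the log2 scale. The number of list genes called was 24, from 18 to 25 with mice left out and from 19 to 31 otherwise.

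Of 96 log2 fold changes under alternatives, 83 kept their sign and side of the threshold, 11 changed sign, and 2 (Mbp) came past the threshold. The sign changes belonged to Sox10, Fabp7 and Npy, which lay near 0. Sox10 was at -0.00098 under total-count scaling and from -0.16 to 0.20 with mice left out, Fabp7 from -0.13 to 0.18 and Npy from -0.47 to 0.57. On full transcript length the share of the summed level held by Fabp7 was 54.9%, an alternative chosen after seeing the data. The check of likeness under total-count scaling was also chosen then. It gave 0.99 for Frzb with cartilage, 0.90 for Sox10 with glands and 0.94 for S100b with cartilage. For Fabp7 with myelin it gave 0.81 and for Npy with sustentacular cells 0.82. With 3 mice in each group, changes within the intervals given for Npy, Gfap and Ngfr were not excluded.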
